A study of Mus musculus with 18 samples.

Results

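The amino acid arm of the integrated stress response was followed through 37 genes in mouse bone-marrow-derived macrophages: the transcription factor ATF4 with its partners and feedback genes, the amino acid enzymes and transporters they are known to control, cytosolic tRNA synthetases, the tRNA export receptor Xpot, and the outputs Gdf15, Stc2 and Eif4ebp1. The genes were taken by name, from a list chosen with earlier results of these data known. Of the 37, 36 matched a feature on the array and 35 passed the filters, out of 20812 genes tested in all. Pycr1 matched no feature. Nars1 was not tested because the scanner software marked its spot as an outlier in most samples. This left 7 of 18 samples, with levels from 3.29 to 3.75.

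When an amino acid runs short, uncharged tRNA activates the kinase GCN2, which phosphorylates the initiation factor eIF2. Other kinases do the same under endoplasmic reticulum stress, haem shortage or viral RNA. Phosphorylated eIF2 slows translation in general but favours translation of the ATF4 messenger RNA, and ATF4 then pairs with C/EBP proteins on a composite DNA element and switches on genes for amino acid synthesis, uptake and tRNA charging. ATF4 is therefore controlled largely after transcription, and the arrays report messenger RNA only. In macrophages, serine and glycine made by this pathway feed folate one-carbon metabolism and glutathione.

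The cells came from the femurs of male C57BL/6J mice aged 8 weeks and were differentiated for 7 days with macrophage colony stimulating factor. Each of the 6 groups held 3 samples: wild-type cells and cells labelled PHD3-/- (called knockout here), each as control at oxygen 20, at oxygen 1 with control feeding (called low oxygen), and at oxygen 20 with starved feeding. Egln3 encodes PHD3, an oxygen-sensing hydroxylase of hypoxia-inducible factor (HIF). The labels give oxygen without a unit. They do not say whether cells or mice were starved, which nutrient was withdrawn, how long the exposure lasted or which knockout allele was used. The design speaks of 3 mice each without saying if 1 mouse gave cells to several groups, so p-values measure the spread between these samples.

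All levels are log2 processed signals minus the array's own 75th percentile, so a level of 0 is that percentile, and levels of different genes are not compared because probes differ in brightness. A gene is called higher or lower when limma's adjusted p (Benjamini-Hochberg over 20812 genes) is under 0.05. Errors beside changes are standard errors (SE) of the fit with 3 samples per group. In bulk samples, fewer cells of a type and less RNA per cell cannot be told apart.

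The label checks came out as follows. The hypoxia marker Slc2a1, the main glucose transporter, rose at low oxygen by 3.99 ± 0.17 in wild-type cells and by 4.13 ± 0.17 in knockout cells. Egln3 lay between -3.62 and -2.97 in wild-type controls and between -4.05 and -3.63 in knockout controls, and low oxygen brought it to 2.97 to 3.15 and to 2.89 to 3.12, respectively. The signal was thus not called lower in the samples labelled PHD3-/-. Because no source used here says if the probe falls in the deleted stretch, it checks no genotype label. The scanner software called 56.1% to 65.4% of an array's spots well above background. Of 8 macrophage markers, 7 matched a probe and all 7 were well above background in every sample. A sample was said to stand apart when the correlation between the others of its group exceeded both of its own by more than 0.0025. The largest gap below this was 0.0018, for knockout low oxygen replicate 3. In 3 groups 1 sample stood apart: wild-type control replicate 1, wild-type starved replicate 3 and knockout control replicate 3. Without these 3 samples, an alternative added after seeing the data, the counts of called genes given further on were 8 higher and 14 lower at low oxygen in wild-type cells, 10 higher and 13 lower in knockout cells, and 8 lower and 0 higher after starvation in each genotype.

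Of the 37 genes, 31 had an entry in the RefSeq promoter table (build GRCm38.p6), which covers 250 bases before to 50 bases after a transcription start. The C/EBP-ATF element, spelled TGATGNAA and searched on both strands, was in the window of 10 of these 31 genes (32.3%), against 1219 of 27025 genes (4.51%) in the whole table. Aars1, Asns, Atf3, Chac1, Gars1, Nupr1, Pycr1, Slc1a4, Slc7a11 and Trib3 held it. The core of the HIF element, spelled ACGTG and searched on both strands, was in 11 of the 31 (35.5%), against 21.8% of all genes in the table. The next lines show 5 windows that hold the ATF4 element, chosen because these genes went in different directions under the same stress. Capitals mark the element, which reads as TGATGAAA in Asns, and as TTGCATCA or TTACATCA in the others, where it lies on the opposite strand. Asns is at chr6:7693160-7693459 on the minus strand, Nupr1 at chr7:126625421-126625720 on the minus strand, Chac1 at chr2:119350992-119351291 on the plus strand, Atf3 at chr1:191183284-191183583 on the minus strand and Trib3 at chr2:152344011-152344310 on the minus strand.
Asns: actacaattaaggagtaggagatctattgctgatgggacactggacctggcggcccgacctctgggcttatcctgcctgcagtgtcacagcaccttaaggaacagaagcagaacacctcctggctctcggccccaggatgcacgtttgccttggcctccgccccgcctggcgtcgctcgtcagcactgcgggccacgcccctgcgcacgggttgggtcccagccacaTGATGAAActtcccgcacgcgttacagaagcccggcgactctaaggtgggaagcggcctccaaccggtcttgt
Nupr1: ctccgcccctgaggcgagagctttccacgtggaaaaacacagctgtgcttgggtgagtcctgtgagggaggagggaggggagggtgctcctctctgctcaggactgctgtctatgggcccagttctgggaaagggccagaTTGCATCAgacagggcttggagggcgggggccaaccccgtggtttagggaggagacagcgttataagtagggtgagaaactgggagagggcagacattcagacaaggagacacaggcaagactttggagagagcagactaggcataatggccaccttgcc
Chac1: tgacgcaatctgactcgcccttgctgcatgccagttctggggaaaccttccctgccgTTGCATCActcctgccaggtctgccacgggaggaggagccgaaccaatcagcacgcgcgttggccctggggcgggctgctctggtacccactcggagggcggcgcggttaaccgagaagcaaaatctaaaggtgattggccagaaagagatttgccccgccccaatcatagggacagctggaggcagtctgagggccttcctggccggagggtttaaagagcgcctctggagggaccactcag
Atf3: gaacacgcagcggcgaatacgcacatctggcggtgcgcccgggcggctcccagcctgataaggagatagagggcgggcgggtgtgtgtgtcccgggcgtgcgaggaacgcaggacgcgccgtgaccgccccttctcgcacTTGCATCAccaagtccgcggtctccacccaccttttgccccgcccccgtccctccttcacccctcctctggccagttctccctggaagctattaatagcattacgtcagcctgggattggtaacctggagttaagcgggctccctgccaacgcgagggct
Trib3: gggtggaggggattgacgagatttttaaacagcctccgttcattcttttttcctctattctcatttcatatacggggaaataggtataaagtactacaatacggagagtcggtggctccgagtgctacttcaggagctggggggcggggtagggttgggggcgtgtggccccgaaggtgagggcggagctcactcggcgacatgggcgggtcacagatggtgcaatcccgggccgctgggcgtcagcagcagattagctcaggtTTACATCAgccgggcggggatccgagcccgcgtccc

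At low oxygen, messenger RNA for the first 3 genes fell and for Atf3 and Trib3 it rose, in both genotypes. Of the 9 tested genes with the element, 3 were called higher and 4 lower in wild-type cells, and 4 higher and 4 lower in knockout cells. Of the 21 tested genes with a window but no match, 4 were called higher and 9 lower in wild-type cells, and 4 higher and 8 lower in knockout cells. Of all genes tested, 20.7% were called higher and 17.9% lower in wild-type cells, and 22.4% and 17.5% in knockout cells. Under starvation none of the 9 was called higher, and 3 in wild-type and 2 in knockout cells were called lower. The shares of all genes there were 6.88% higher and 5.59% lower in wild-type cells, and 7.22% and 6.18% in knockout cells. A match describes letters in a window and shows no binding.

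At low oxygen genes of the pathway were called in both directions, the rises at close to the share of all genes. In wild-type cells 23 of the 35 tested genes were called, beside 38.6% of all genes tested: 8 rose (20.7% of all genes) and 15 fell (17.9%). In knockout cells 23 were called, beside 39.8%: 9 rose (22.4%) and 14 fell (17.5%). The 3 enzymes of serine synthesis fell, as did Shmt2 and Mthfd2 of the mitochondrial folate cycle, the secreted factor Gdf15 fell, and the translation inhibitor Eif4ebp1 and the secreted factor Stc2 rose. The median change over the 35 genes was -0.15 in wild-type and -0.13 in knockout cells, beside 0.04 and 0.05 over all genes.

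**Figure D1:**
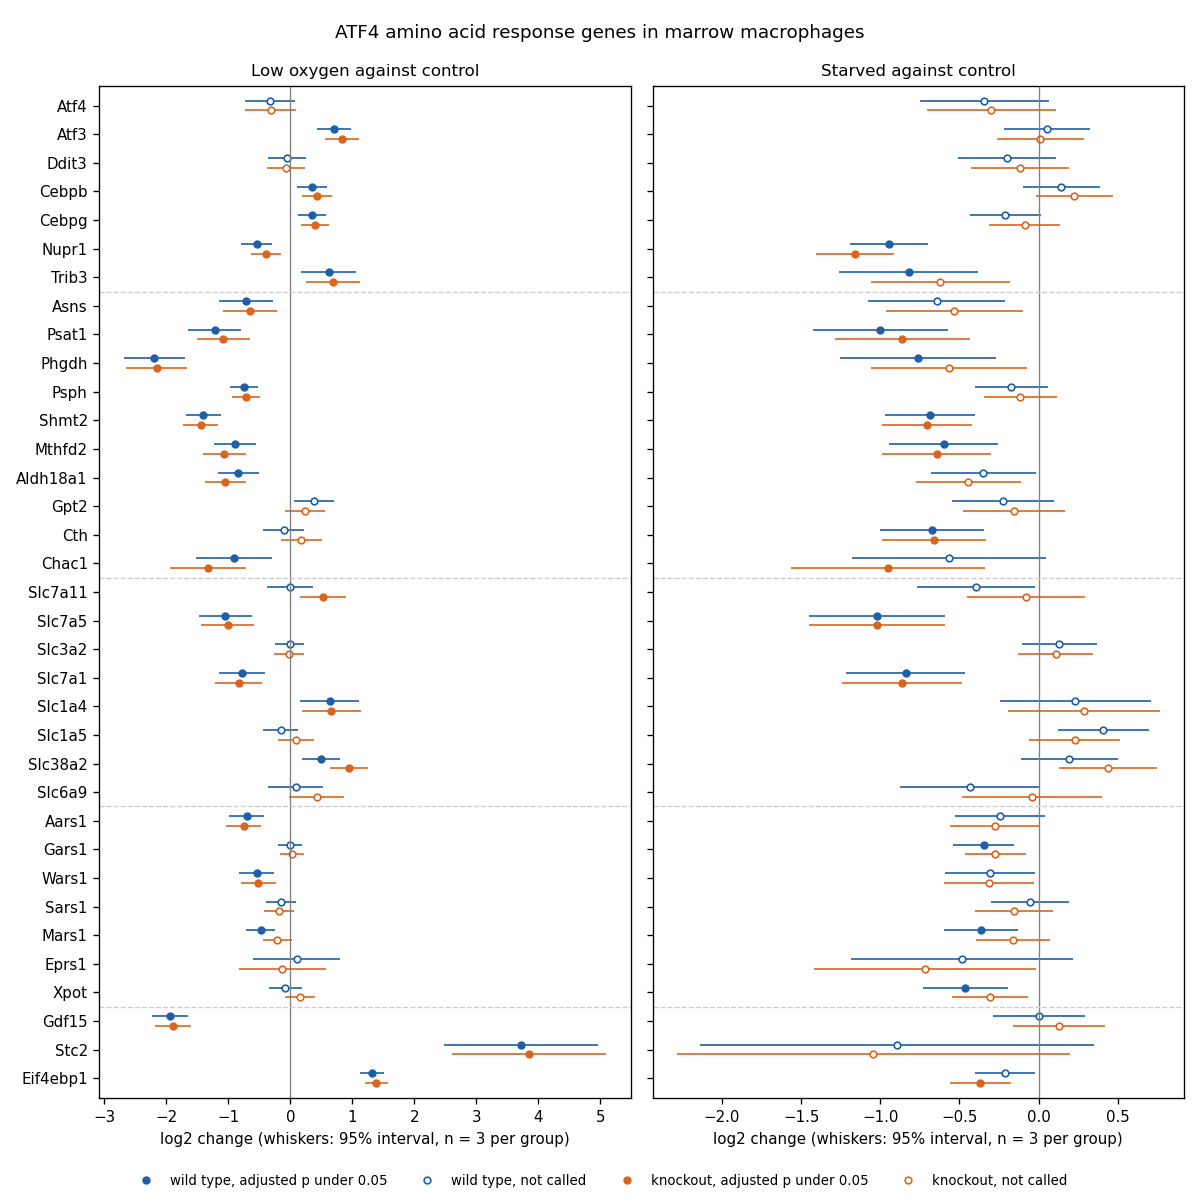
Log2 change of each of the 35 tested genes at low oxygen (left) and after starvation (right) against control, wild-type cells in blue and knockout cells in orange, with 95% intervals (n = 3 samples per group) and filled points where limma's adjusted p was under 0.05. Dashed lines separate transcription regulators, enzymes, transporters, tRNA genes, and secreted factors with Eif4ebp1. Filled points lie on both sides of 0 at low oxygen and only below 0 after starvation, and the horizontal scales of the panels differ.

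Among the regulators, Atf4 itself was not called. Its levels in wild-type cells were 1.74, 1.32 and 1.52 in controls, 1.31, 0.94 and 1.35 at low oxygen, and 1.13, 1.27 and 1.16 after starvation. In knockout cells they were 1.38, 1.63 and 1.49, then 1.46, 1.10 and 0.99, then 1.58, 1.29 and 0.75. On this tested probe, groups overlapped except wild-type starved against control. The changes ran from -0.34 to -0.30 with adjusted p from 0.196 to 0.375. A brighter Atf4 probe, with a mean level of 6.81 against 1.29, was left out because knockout low oxygen replicates 2 and 3 carried outlier flags. Knockout starved replicate 1 was flagged too. With flagged spots kept, the brighter probe gave 0.15 ± 0.18 and 0.24 ± 0.18 at low oxygen in wild-type and knockout cells. After starvation it gave -0.36 ± 0.18 and -0.10 ± 0.18, and none of these changes was called. In wild-type cells, where it was never flagged, the brighter probe stood at 7.02, 6.79 and 6.94 in controls and at 7.07, 7.03 and 7.10 at low oxygen. Starved wild-type samples gave 6.52, 6.22 and 6.95. On that probe low oxygen lay just above the wild-type controls, and starved samples overlapped them. The sign of the low oxygen change and the overlap of wild-type groups therefore differed between the probes.

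Ddit3, which encodes the stress factor CHOP, stayed within a narrow band. Its levels were 2.44, 2.61 and 2.64 in wild-type controls, 2.39, 2.48 and 2.65 at low oxygen and 2.34, 2.49 and 2.25 after starvation. Knockout samples gave 2.49, 2.57 and 2.25, then 2.68, 2.35 and 2.07, then 2.47, 2.32 and 2.16. All groups overlapped, and the 4 changes lay between -0.20 and -0.06, with 95% intervals reaching from -0.51 to 0.25.

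Other regulators rose at low oxygen in both genotypes. Atf3, a stress-induced repressor related to ATF4, rose by 0.70 ± 0.13 in wild-type (adjusted p = 0.000514) and by 0.83 ± 0.13 in knockout cells (adjusted p = 0.000107), and did not overlap its controls. Cebpb and Cebpg, the C/EBP partners of ATF4, rose by 0.35 ± 0.11 each in wild-type cells and by 0.43 ± 0.11 and 0.40 ± 0.11 in knockout cells. Nupr1, a small stress-induced chromatin protein, fell by 0.54 ± 0.12 in wild-type and by 0.40 ± 0.12 in knockout cells. Of the 7 regulators 4 rose and 1 fell in each genotype, beside 20.7% and 17.9% of all genes in wild-type and 22.4% and 17.5% in knockout cells.

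Trib3, a pseudokinase induced by ATF4 that in turn restrains it, rose at low oxygen and was lower after starvation, by a called change in wild-type cells. Wild-type levels were 4.04, 3.80 and 4.11 in controls, 4.34, 4.60 and 4.86 at low oxygen and 3.13, 2.98 and 3.39 after starvation. Knockout levels were 3.55, 3.84 and 4.03, then 4.86, 4.52 and 4.11, then 3.42, 3.26 and 2.88. In each genotype every low oxygen sample lay above every control and every starved sample below. The rise was 0.62 ± 0.21 (adjusted p = 0.0275) in wild-type and 0.69 ± 0.21 (adjusted p = 0.0147) in knockout cells. Low oxygen exceeded starvation by 1.44 ± 0.21 in wild-type (2.71-fold, adjusted p = 6.91e-05) and by 1.31 ± 0.21 in knockout cells (2.48-fold, adjusted p = 0.000154). Several of these smaller rises rested on few samples. The wild-type call of Trib3 ended without control replicate 2 (adjusted p = 0.102), low oxygen replicate 2 (0.0606) or low oxygen replicate 3 (0.108), and the knockout call without control replicate 1 (0.0712) or low oxygen replicate 1 (0.0750). The wild-type call of Cebpb ended without control replicate 1 (0.0996), low oxygen replicate 2 (0.0534) or 3 (0.0729), that of Cebpg without control replicate 3 (0.0685) or low oxygen replicate 3 (0.0565), and the knockout call of Nupr1 without control replicate 2 (0.0529) or low oxygen replicate 3 (0.0549).

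Of 10 tested enzymes of amino acid and one-carbon metabolism, 8 fell and none rose at low oxygen in each genotype (of all genes, 17.9% fell in wild-type and 17.5% in knockout cells), with medians of -0.87 in wild-type and -1.06 in knockout cells. Phgdh, which opens serine synthesis from the glycolytic intermediate 3-phosphoglycerate, stood at 2.54, 2.77 and 2.98 in wild-type controls and at 0.71, 0.21 and 0.77 at low oxygen. Knockout samples gave 2.78, 3.08 and 2.30 against 0.80, 0.36 and 0.52. No low oxygen sample came near its controls. Phgdh fell by 2.20 ± 0.23 in wild-type (4.59-fold, adjusted p = 3.05e-06) and by 2.16 ± 0.23 in knockout cells (4.46-fold, adjusted p = 3.39e-06).

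Psat1, the transaminase of the next step, fell from 3.12, 2.71 and 2.90 to 2.04, 1.26 and 1.78 in wild-type cells and from 2.65, 2.98 and 2.88 to 1.93, 1.98 and 1.36 in knockout cells. The groups did not overlap, and the changes were -1.22 ± 0.20 (adjusted p = 0.00022) and -1.08 ± 0.20 (adjusted p = 0.000541). Psph, the phosphatase that releases serine, fell by 0.75 ± 0.11 and 0.71 ± 0.11. Messenger RNA for all 3 steps of serine synthesis was thus lower.

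Shmt2 and Mthfd2, which act in the mitochondrial folate cycle, fell too. Shmt2, which splits serine into glycine and a one-carbon unit, went from 1.87, 2.13 and 1.98 to 0.50, 0.63 and 0.63 in wild-type cells and from 2.11, 2.19 and 1.90 to 0.84, 0.46 and 0.56 in knockout cells. These groups were separated by over 1 log2 unit, with changes of -1.41 ± 0.13 (adjusted p = 1.16e-06) and -1.45 ± 0.13 (adjusted p = 8.19e-07). Mthfd2, the mitochondrial methylenetetrahydrofolate dehydrogenase, went from 2.66, 2.73 and 2.59 to 1.77, 1.56 and 1.98 and from 2.73, 2.72 and 2.73 to 1.95, 1.55 and 1.48. It fell by 0.89 ± 0.16 and 1.06 ± 0.16, again without overlap.

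Aldh18a1, which makes the proline precursor pyrroline-5-carboxylate, stood at -1.53, -1.22 and -1.60 in wild-type controls and at -2.24, -2.35 and -2.27 at low oxygen, and in knockout cells at -1.18, -1.23 and -1.58 against -2.18, -2.41 and -2.55. It fell by 0.84 ± 0.16 and 1.05 ± 0.16 without overlap. Chac1, which degrades glutathione and is a sensitive ATF4 target, stood at 2.08, 1.67 and 1.75 against 0.95, 0.92 and 0.90 in wild-type cells. In knockout cells it stood at 1.68, 1.83 and 2.35 against 1.39, 0.64 and -0.16, the widest spread among these enzymes. It fell by 0.91 ± 0.29 (adjusted p = 0.0209) and 1.33 ± 0.29 (adjusted p = 0.00184), and the wild-type call ended without control replicate 1 (-0.79, adjusted p = 0.0740).

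Asns, asparagine synthetase and the classical readout of amino acid shortage, did not rise under either stress. Wild-type levels were 4.76, 4.54 and 4.76 in controls, 4.04, 3.61 and 4.26 at low oxygen and 3.85, 4.09 and 4.19 after starvation. Knockout levels were 4.41, 4.61 and 4.83, then 4.28, 4.04 and 3.56, then 4.24, 4.22 and 3.79. All stressed samples lay below all controls of their genotype. Low oxygen lowered it by 0.71 ± 0.20 (adjusted p = 0.0118) and 0.66 ± 0.20 (adjusted p = 0.0178), while the starvation changes of -0.64 ± 0.20 (adjusted p = 0.0510) and -0.53 ± 0.20 (adjusted p = 0.104) were not called. The low oxygen call ended in wild-type cells without low oxygen replicate 2 (-0.53, adjusted p = 0.0620) and in knockout cells without control replicate 3 (-0.55, adjusted p = 0.0689) or low oxygen replicate 3 (-0.46, adjusted p = 0.0942). Gpt2, an alanine transaminase, and Cth, the last enzyme of cysteine synthesis, were not called at low oxygen.

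Beyond the 37 genes, 14 of 15 other folate and glycine enzymes were tested, in a list chosen with earlier results of these data known. At low oxygen 2 rose and 7 fell in wild-type cells (20.7% and 17.9% of all genes) and 3 rose and 8 fell in knockout cells (22.4% and 17.5%). Mtr, methionine synthase, fell by 1.66 ± 0.12 and 1.86 ± 0.12, and Mthfd1, the cytosolic three-function folate enzyme, by 1.40 ± 0.13 and 1.31 ± 0.13. Mthfd1l, which makes formate in mitochondria, went the other way and rose by 2.25 ± 0.15 and 2.53 ± 0.17, the latter without knockout low oxygen replicate 3, whose spot was dropped as an outlier. Messenger RNA for the enzyme just downstream of Mthfd2 in the mitochondrial folate cycle was thus higher while that for Mthfd2 was lower.

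**Figure D2:**
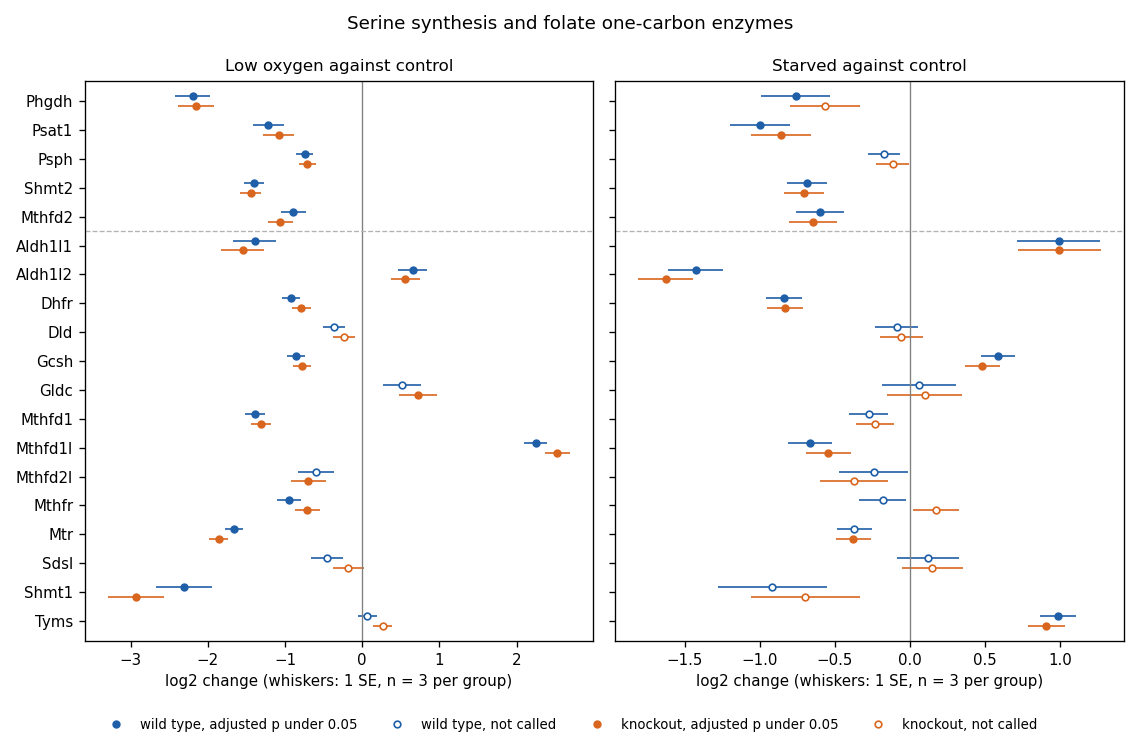
Log2 change of the serine synthesis and mitochondrial folate genes among the 37 (above the dashed line) and of 14 other folate and glycine enzymes (below) at low oxygen and after starvation against control, with whiskers of 1 SE (n = 3 samples per group). Mthfd1l stands at 2.25 and 2.53 at low oxygen while Phgdh, Psat1, Psph, Shmt2 and Mthfd2 all lie below 0.

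Of the 8 amino acid transporters, 2 rose and 2 fell at low oxygen in wild-type cells, beside 20.7% and 17.9% of all genes. In knockout cells 3 rose and 2 fell, beside 22.4% and 17.5%. Slc7a5, the light chain of the leucine carrier LAT1, stood at -0.35, -0.36 and -0.60 in wild-type controls, -1.42, -1.93 and -1.10 at low oxygen and -1.62, -1.52 and -1.23 after starvation. Knockout samples gave -0.68, -0.73 and -0.31, then -1.37, -1.52 and -1.87, then -1.60, -1.38 and -1.81. Both stresses brought it to about the same level, well below controls. The changes were -1.05 ± 0.20 and -1.01 ± 0.20 at low oxygen and -1.02 ± 0.20 in each genotype after starvation, all called. Its second probe gave smaller changes, of -0.42 and -0.44 at low oxygen and -0.13 and -0.10 after starvation.

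Slc7a1, the carrier of arginine and lysine, also fell at low oxygen, by 0.78 ± 0.18 and 0.83 ± 0.18. Slc38a2, the amino acid-sensitive neutral carrier SNAT2, rose by 0.50 ± 0.14 in wild-type and by 0.95 ± 0.14 in knockout cells, and Slc1a4, a serine and alanine carrier, by 0.63 ± 0.22 and 0.66 ± 0.22. Slc7a11, the cystine carrier, changed by 0.00 ± 0.17 in wild-type cells and rose by 0.53 ± 0.17 in knockout cells. Slc3a2, the heavy chain shared by LAT1 and the cystine carrier, stayed between 4.51 and 5.02 in all 18 samples and was called nowhere.

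Calls of the rising transporters rested on few samples. The wild-type call of Slc38a2 ended without control replicate 1 (0.43, adjusted p = 0.0519), and that of Slc1a4 without control replicate 2 (0.167) or 3 (0.0524) or low oxygen replicate 2 (0.103) or 3 (0.0962), as adjusted p. In knockout cells that of Slc1a4 ended without control replicate 1 (0.134) or 2 (0.0950) or any of low oxygen replicates 1 (0.0542), 2 (0.0817) and 3 (0.0549), and that of Slc7a11 without control replicate 1 (0.0733) or low oxygen replicates 1 (0.0783) or 3 (0.0988).

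The tRNA synthetases load tRNA with its amino acid. Of 7 tested tRNA genes none rose at low oxygen. Aars1 (alanine) fell by 0.71 ± 0.13 and 0.75 ± 0.13 and Wars1 (tryptophan) by 0.54 ± 0.13 and 0.52 ± 0.13, in wild-type and knockout cells. A dimmer second probe of Aars1, well above background in 4 samples, gave -0.84 ± 0.71 and -1.04 ± 0.71, and the mean over both probes was not called (adjusted p = 0.107 and 0.0625). The second probe of Wars1 gave larger falls, of -0.88 ± 0.18 and -1.34 ± 0.18, while normexp ended the Wars1 calls (adjusted p = 0.197 and 0.166). Mars1 (methionine) fell by 0.48 ± 0.11 in wild-type cells and changed by -0.21 ± 0.11 (adjusted p = 0.15) in knockout cells, and the difference between these responses was not called. Gars1 (glycine), Sars1 (serine), Eprs1 (glutamate and proline) and Xpot, which carries tRNA out of the nucleus, were not called at low oxygen. With its flagged spots kept, Nars1 (asparagine) changed by -0.19 ± 0.14 and -0.10 ± 0.14, not called.

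The same was asked of the other synthetases, in lists chosen with earlier results known. The shares of all genes to set beside the low oxygen counts are 20.7% higher and 17.9% lower in wild-type and 22.4% and 17.5% in knockout cells. Of 17 other cytosolic synthetases and scaffold proteins, 1 rose and 7 fell at low oxygen in each genotype. Farsb, the beta subunit of the phenylalanine enzyme, fell by 1.26 ± 0.08 and 1.16 ± 0.08, Vars1 (valine) by 1.31 ± 0.20 and 1.52 ± 0.20, and Kars1 (lysine) by 0.57 ± 0.10 and 0.61 ± 0.10. Of 17 mitochondrial synthetases 1 rose and 7 fell in wild-type cells and 3 rose and 8 fell in knockout cells, led by Sars2, which fell by 0.91 ± 0.11 and 1.00 ± 0.11. Of 12 genes of tRNA export, quality control and modification none rose and 6 fell in each genotype, led by the methyltransferase subunit Trmt61a, which fell by 1.00 ± 0.10 and 1.04 ± 0.10.

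**Figure D3:**
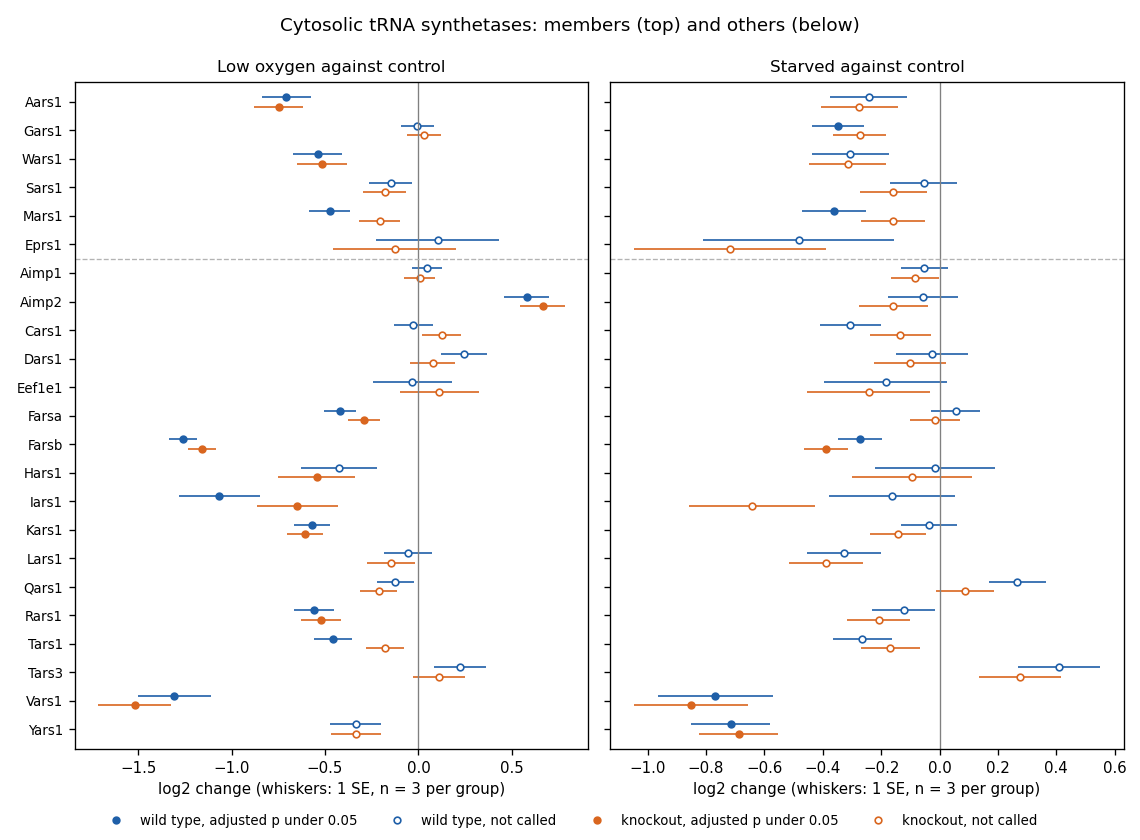
Log2 change of cytosolic tRNA synthetase genes at low oxygen and after starvation against control, with whiskers of 1 SE (n = 3 samples per group): the 6 tested members on top and 17 other cytosolic synthetases and scaffold proteins below the dashed line. Vars1 and Farsb have the lowest called values of the cytosolic enzymes at low oxygen, between -1.52 and -1.16.

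The outputs held the largest rise and a large fall. Gdf15, a secreted stress hormone, stood at 4.54, 4.83 and 4.75 in wild-type controls and at 2.65, 2.78 and 2.89 at low oxygen, and in knockout cells at 4.60, 4.61 and 4.49 against 2.86, 2.45 and 2.74. Starved samples overlapped their controls, with 4.79, 4.63 and 4.72 in wild-type and 4.97, 4.45 and 4.66 in knockout cells. Low oxygen lowered it by 1.94 ± 0.14 (3.82-fold, adjusted p = 5.88e-08) and by 1.89 ± 0.14 (3.70-fold, adjusted p = 6.83e-08).

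Stc2, a secreted glycoprotein induced by ATF4 and by HIF, was dim outside low oxygen. Wild-type levels were -4.73, -5.30 and -5.39 in controls, -1.01, -1.70 and -1.54 at low oxygen and -5.35, -6.13 and -6.61 after starvation. Knockout levels were -5.27, -4.23 and -5.40, then -1.05, -1.21 and -1.05, then -4.65, -5.60 and -7.77. It was well above background in all control and low oxygen samples but in only 1 of 3 wild-type and 2 of 3 knockout starved samples. The rise was 3.72 ± 0.58 (13.2-fold, adjusted p = 0.000138) in wild-type and 3.86 ± 0.58 (14.5-fold, adjusted p = 9.14e-05) in knockout cells.

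Eif4ebp1, whose protein 4E-BP1 blocks cap-dependent translation when mTORC1 is off, rose in every low oxygen sample. Its levels were 4.50, 4.43 and 4.56 in wild-type controls, 5.81, 5.78 and 5.83 at low oxygen and 4.23, 4.37 and 4.26 after starvation. Knockout levels were 4.47, 4.53 and 4.61, then 6.06, 5.83 and 5.88, then 4.27, 4.21 and 4.02. Every low oxygen sample was at least 1 log2 unit above every control and every starved sample was below. It rose by 1.31 ± 0.09 (2.48-fold, adjusted p = 4.51e-08) and by 1.39 ± 0.09 (2.62-fold, adjusted p = 2.37e-08).

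**Figure D4:**
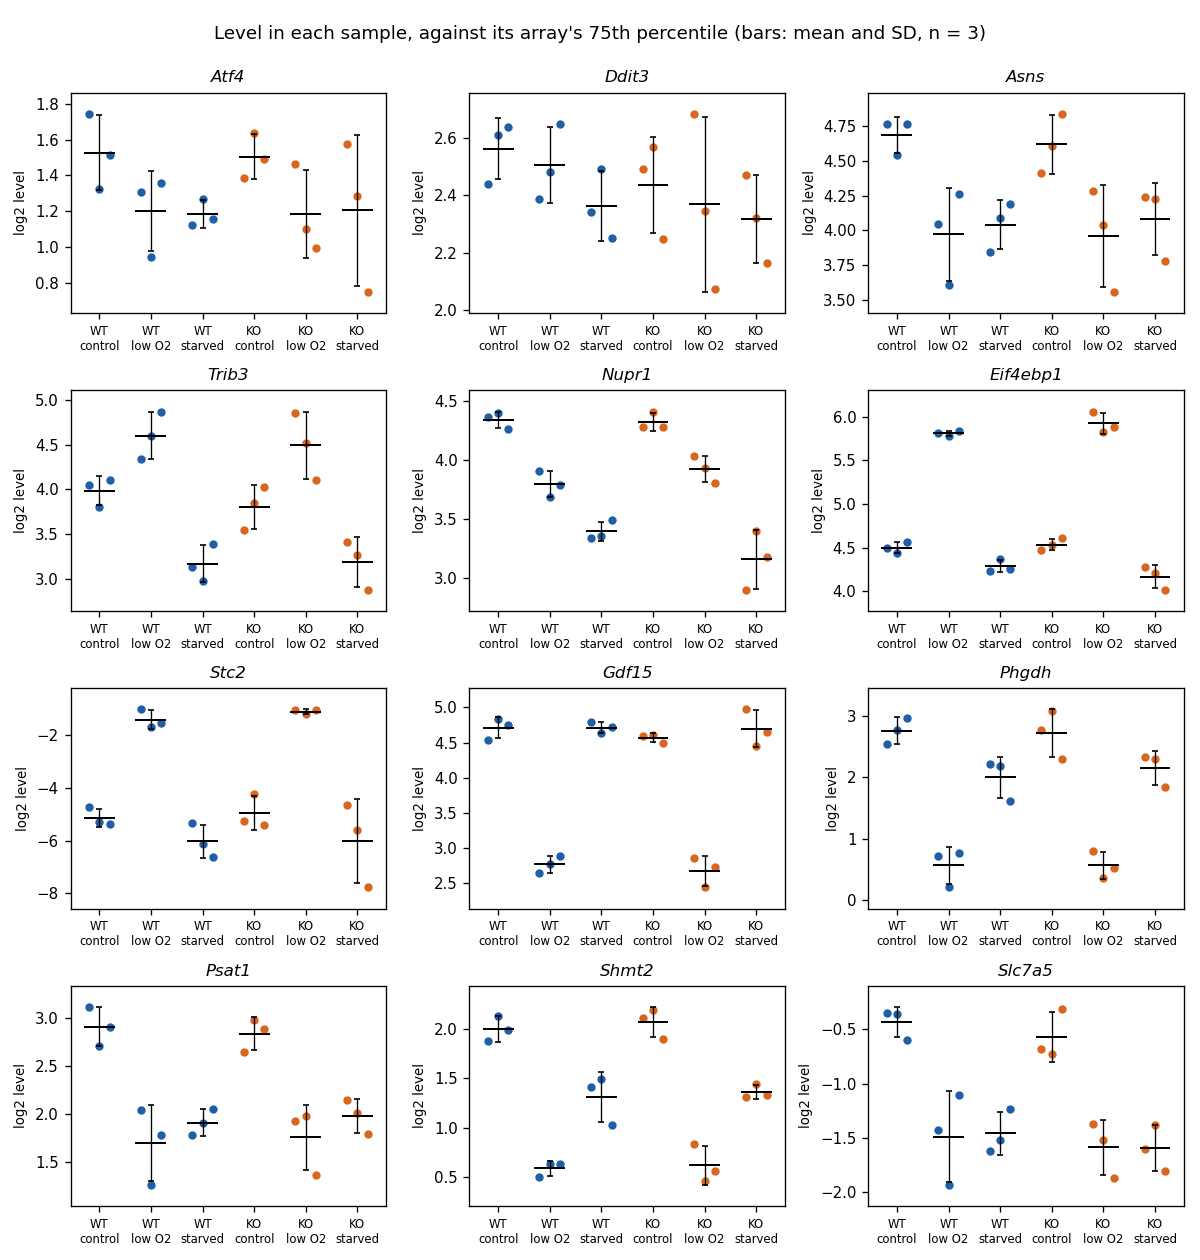
Log2 level of 12 genes in each of the 18 samples, where 0 is the array's 75th percentile, by genotype and condition (points are samples, bars are the mean with SD, n = 3). Trib3, Eif4ebp1 and Stc2 are highest at low oxygen, Gdf15 and Phgdh are lowest there, Nupr1 is lowest after starvation, and each panel has its own vertical scale.

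After starvation the called changes were falls. None of the 35 genes was called higher in either genotype by limma, against 6.88% of all genes in wild-type and 7.22% in knockout cells, while 12 fell in wild-type cells, against 5.59% of all genes, and 9 fell in knockout cells, against 6.18%. In all, 12 of 35 and 9 of 35 were called, beside 12.5% and 13.4% of all genes. At an unadjusted p under 0.05, 18 of the 35 passed in each genotype, beside 23.7% and 25.2% of all genes. The sign was negative for 28 of 35 in each genotype, beside 9346 of all 20812 genes in wild-type and 9861 in knockout cells. The median was -0.35 in wild-type and -0.30 in knockout cells, beside 0.03 and 0.02 over all genes. Groups did not overlap, with starved samples lower, for 20 genes in wild-type (13.8% of all genes tested) and 17 in knockout cells (14.6%). They did not overlap, with starved samples higher, for 1 gene in each genotype (15.6% and 16.2% of all genes): Slc1a5, a glutamine carrier, at 0.41 ± 0.13 (adjusted p = 0.0625) in wild-type cells, and Slc38a2 at 0.44 ± 0.14 (adjusted p = 0.0587) in knockout cells. Slc1a5 was called with the slide (adjusted p = 0.0275) or the replicate number (0.0407) as a block, and Slc38a2 with a filter that asks for all 18 samples well above background (0.0463).

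Nupr1 had the smallest adjusted p of the 35 genes in each genotype. Its levels were 4.36, 4.40 and 4.26 in wild-type controls, 3.91, 3.69 and 3.79 at low oxygen and 3.34, 3.36 and 3.49 after starvation. Knockout levels were 4.28, 4.41 and 4.28, then 4.03, 3.94 and 3.81, then 2.91, 3.40 and 3.18. The 3 conditions were fully separated in that order in both genotypes. Starvation lowered it by 0.94 ± 0.12 (adjusted p = 7.70e-05) and 1.16 ± 0.12 (adjusted p = 1.05e-05), and low oxygen exceeded starvation by 0.40 ± 0.12 and 0.76 ± 0.12.

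Of the 3 serine synthesis genes, Psat1 was called lower in both genotypes and Phgdh in wild-type cells alone. Psph was called in neither, at -0.17 in wild-type and -0.12 in knockout cells. Of the 8 transporters, 2 were called lower in each genotype, beside 5.59% and 6.18% of all genes. None was called higher, beside 6.88% and 7.22%, and the change was above 0 for 4 of the 8 in each genotype. Starved Psat1 levels of 1.78, 1.91 and 2.05 in wild-type and 2.14, 2.01 and 1.79 in knockout cells lay below all controls, with falls of 1.00 ± 0.20 (adjusted p = 0.00363) and 0.86 ± 0.20 (adjusted p = 0.00965). Starved Shmt2 levels of 1.42, 1.49 and 1.03 in wild-type and 1.31, 1.45 and 1.33 in knockout cells lay between the control and low oxygen levels, and it fell by 0.68 ± 0.13 and 0.71 ± 0.13. Starved Mthfd2 levels were 1.92, 2.14 and 2.12 in wild-type and 2.38, 2.15 and 1.71 in knockout cells, below all controls. Slc7a1 fell by 0.84 ± 0.18 and 0.86 ± 0.18, Cth by 0.67 ± 0.15 and 0.66 ± 0.15 (but -0.15 with adjusted p = 0.681 and -0.50 with 0.364 under normexp background correction), and Mthfd2 by 0.60 ± 0.16 and 0.64 ± 0.16. With Slc7a5 and Nupr1 these were the 7 genes called lower in both genotypes.

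Other calls were made in 1 genotype. In wild-type cells Trib3 fell by 0.82 ± 0.21, Phgdh by 0.76 ± 0.23, Xpot by 0.46 ± 0.12, Mars1 by 0.36 ± 0.11 and Gars1 by 0.35 ± 0.09, and in knockout cells Chac1 fell by 0.95 ± 0.29 and Eif4ebp1 by 0.37 ± 0.09. Starved Phgdh levels were 2.21, 2.18 and 1.61 in wild-type cells, below all controls, and 2.33, 2.29 and 1.84 in knockout cells, which overlapped them. Starved Chac1 levels were 1.14, 1.18 and 1.48 in wild-type and 0.95, 1.24 and 0.81 in knockout cells, below all controls in both genotypes. Aldh18a1, at -1.78, -1.53 and -2.09 and at -1.71, -1.69 and -1.92 in starved samples, was not called, but with the slide as a block it was, at -0.35 (adjusted p = 0.0229) in wild-type and -0.39 (0.0153) in knockout cells. The value of Xpot rests on 2 wild-type controls, since its spot was flagged in replicate 1. In the other genotype all 7 had the same sign, from -0.62 for Trib3 to -0.16 for Mars1, and no difference between genotypes was called.

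The starvation calls were sensitive to single samples. In wild-type cells the count of 12 went to 7 without control replicate 2, to 6 without control replicate 3 and to 6 without starved replicate 1. The call of Mars1 ended without any 1 of the 6 samples (adjusted p from 0.0574 to 0.143), that of Phgdh without any but control replicate 1 (0.0590 to 0.162), that of Xpot without any of the 5 samples with a value (0.0560 to 0.167), and that of Gars1 without control replicate 3 (0.0699) or starved replicate 1 (0.0812). That of Trib3 ended without control replicate 3 (0.0656), starved replicate 1 (0.0560) or 2 (0.0698), that of Mthfd2 without any control (0.0518 to 0.0806) or starved replicate 1 (0.106), and that of Cth without control replicate 2 (0.0535). In knockout cells that of Chac1 ended without control replicate 2 (0.0741) or 3 (0.159) or any starved sample (0.0522 to 0.129), and those of Mthfd2 (0.0714) and Eif4ebp1 (0.0660) without starved replicate 3.

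After starvation all 7 tested tRNA genes were below 0 in each genotype on the tested probes, with medians of -0.35 and -0.27. Of all 20812 genes, 9346 in wild-type and 9861 in knockout cells were below 0. The dimmer second probe of Aars1 gave -1.19 in wild-type and 0.03 in knockout cells. Of the 7, 3 were called in wild-type cells and none in knockout cells. Of the 17 other cytosolic synthetases and scaffold proteins 3 fell and none rose in each genotype. These were Yars1 (tyrosine), at -0.71 ± 0.14 and -0.69 ± 0.14, Vars1, at -0.77 ± 0.20 and -0.85 ± 0.20, and Farsb, at -0.27 ± 0.08 and -0.39 ± 0.08. Of 17 mitochondrial synthetases 3 fell and none rose in each genotype, with Tars2 (threonine) at -0.44 ± 0.09 and -0.35 ± 0.09. The shares of all genes after starvation were 6.88% higher and 5.59% lower in wild-type and 7.22% and 6.18% in knockout cells. Of the 14 folate and glycine enzymes 3 rose and 3 fell in wild-type cells and 3 rose and 4 fell in knockout cells, with Tyms, thymidylate synthase, up by 0.99 ± 0.12 and 0.91 ± 0.12 and Aldh1l2, a mitochondrial formyltetrahydrofolate dehydrogenase, down by 1.43 ± 0.18 and 1.62 ± 0.18.

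The upstream control of the pathway was looked at through 16 genes for eIF2 kinases, eIF2B and their regulators. At low oxygen 2 rose and 3 fell in each genotype, shares of the list that are near or below those of all genes (20.7% higher and 17.9% lower in wild-type, 22.4% and 17.5% in knockout cells). Ppp1r15a, which encodes the phosphatase subunit GADD34 that reverses eIF2 phosphorylation, rose by 0.88 ± 0.11 and 0.85 ± 0.11, and the eIF2B subunits Eif2b3, at -0.84 ± 0.09 and -0.82 ± 0.09, and Eif2b1, at -0.51 ± 0.10 and -0.50 ± 0.10, fell. After starvation Eif2ak3, which encodes the kinase PERK, rose by 0.41 ± 0.09 and 0.34 ± 0.09, and Gcn1, the partner of GCN2, fell by 0.42 ± 0.10 in wild-type cells and changed by -0.26 ± 0.10 in knockout cells.

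Of 26 further genes reported as ATF4 targets 24 were tested, and at low oxygen 13 rose and 6 fell in wild-type cells (20.7% and 17.9% of all genes) and 14 rose and 6 fell in knockout cells (22.4% and 17.5%). The smallest adjusted p were those of Vegfa, a vascular growth factor, at 4.02 ± 0.12 and 4.51 ± 0.12, Ero1a, an oxidase of the endoplasmic reticulum, at 4.60 ± 0.18 and 4.59 ± 0.18, and Ddit4, an inhibitor of mTORC1, at 2.85 ± 0.15 and 2.93 ± 0.15. All 3 are also known HIF targets. After starvation 1 of the 24 rose and 6 fell in wild-type cells (6.88% and 5.59% of all genes) and 4 rose and 4 fell in knockout cells (7.22% and 6.18%). Ddit4 rose by 0.57 ± 0.15 and 0.87 ± 0.15, and Pck2, a mitochondrial enzyme of glucose synthesis, fell by 0.68 ± 0.17 and 0.61 ± 0.17.

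Set directly against each other, low oxygen was higher than starvation for 10 of the 35 genes in wild-type cells, against 19.1% of all genes, and lower for 7, against 19.0%. In knockout cells it was higher for 11, against 19.7%, and lower for 6, against 17.2%. Stc2 was called higher in both genotypes, with no size given because only 1 of 3 wild-type and 2 of 3 knockout starved samples were well above background. Eif4ebp1 was higher by 1.52 ± 0.09 and 1.76 ± 0.09. Gdf15 was lower by 1.94 ± 0.14 and 2.01 ± 0.14 and Phgdh by 1.44 ± 0.23 and 1.59 ± 0.23. Slc7a5, Slc7a1, Asns and Atf4 were not called in this contrast, with changes between -0.12 and 0.06 and 95% intervals reaching from -0.55 to 0.44. For Atf4 and Slc7a5 these values come from the tested probes. Against controls, the brighter Atf4 probe with flagged spots kept gave 0.15 at low oxygen and -0.36 after starvation in wild-type cells. In knockout cells it gave 0.24 and -0.10. The second Slc7a5 probe gave -0.42 and -0.13 in wild-type and -0.44 and -0.10 in knockout cells. On both of these probes the stresses lay further apart.

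The genotype changed none of these genes by the test. In controls, at low oxygen and after starvation, 0 of the 35 genes were called between knockout and wild-type cells (0% of all genes tested in each), and 0 were called for a genotype difference in either response, all by limma. At an unadjusted p under 0.05 the counts among the 35 were 1 in controls, 0 at low oxygen, 0 after starvation, 2 for the low oxygen response and 0 for the starvation response, beside 1.36%, 1.76%, 1.89%, 1.17% and 1.02% of all genes. For the median gene of the 35, the 95% interval reached 0.31 either side of the value in a genotype comparison. For a difference of responses it reached 0.44. These intervals are not adjusted for the number of genes tested, whereas the calls are. Differences of this size, and larger ones, could therefore go uncalled with 3 samples per group. Slc7a11 was not called at -0.43 in controls or at 0.53 for the low oxygen response. Outside the 35, Egln3 was not called at -0.49 ± 0.15 in controls.

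The transporters Slc7a11 and Slc38a2 gave the unadjusted values. Slc7a11 stood at -0.99, -0.95 and -0.96 in wild-type controls and at -1.48, -1.35 and -1.37 in knockout controls, and at low oxygen at -1.05, -0.90 and -0.94 against -0.74, -1.20 and -0.66. The controls did not overlap and the low oxygen samples did. Its low oxygen response differed by 0.53 ± 0.25 (95% interval 0.01 to 1.06) and that of Slc38a2 by 0.45 ± 0.20 (0.01 to 0.88), neither called.

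The genotypes share no samples, so their responses can be set side by side. At low oxygen 30 of 35 genes had the same sign in both, 22 were called in both, 1 (Mars1) in wild-type cells alone and 1 (Slc7a11) in knockout cells alone, with r = 0.986 across genes. After starvation all 35 had the same sign, 7 were called in both, 5 in wild-type and 2 in knockout cells alone, with r = 0.921. These r values are across genes, which are not independent replicates, and the genes share the arrays and slides. Agreement was worked out for the 35 genes only, so it shows no trait particular to them. Of all genes, 38.6% in wild-type and 39.8% in knockout cells were called at low oxygen, and 12.5% and 13.4% after starvation.

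**Figure D5:**
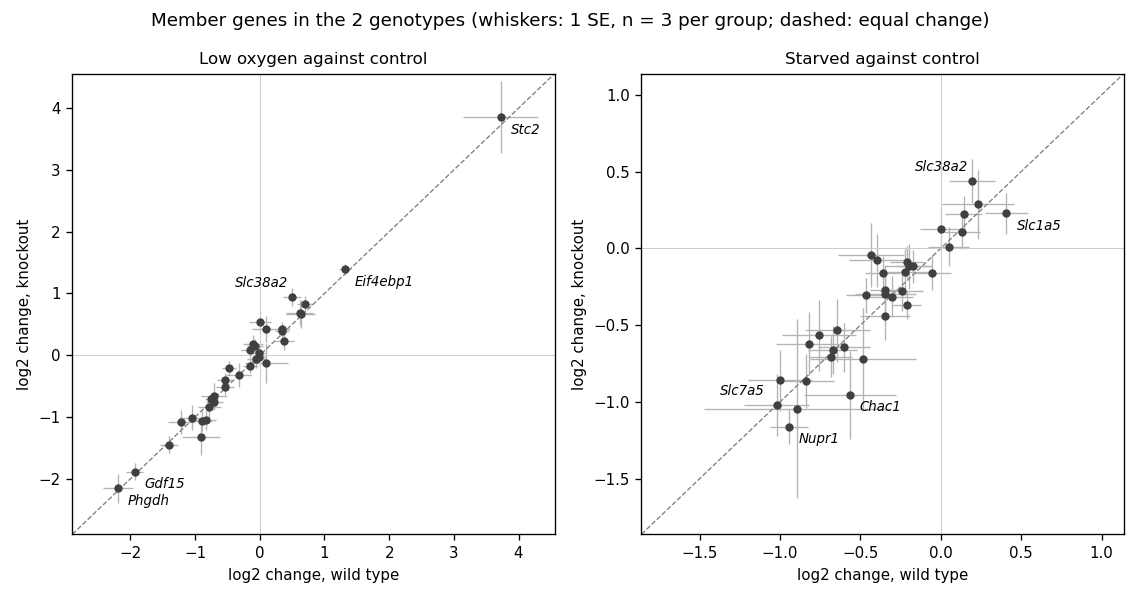
Log2 change of the 35 genes in knockout cells against that in wild-type cells, at low oxygen (left) and after starvation (right), with whiskers of 1 SE (n = 3 samples per group) and a dashed line of equal change. Points lie close to the line, with r = 0.986 and r = 0.921 across genes.

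Arrays lay on 5 slides. For low oxygen against control, slide 2 alone held both wild-type groups, so that comparison is largely tied to the slide. Slides 1, 3 and 5 held both knockout groups. For starvation, slides 2, 4 and 5 held both wild-type groups and slides 1, 3 and 4 both knockout groups. With the slide as a block, these low oxygen calls ended in wild-type cells: Trib3 (0.56, adjusted p = 0.141), Cebpb (0.33, 0.114), Cebpg (0.31, 0.0574), Chac1 (-0.76, 0.113) and Slc38a2 (0.37, 0.10). In knockout cells those of Asns (-0.58, adjusted p = 0.0754) and Slc7a11 (0.44, 0.0723) ended, as did the starvation call of Chac1 (-0.88, 0.0842), which also ended with the replicate number as a block (0.0539). The starvation change of Stc2 in knockout cells became called (-1.27, adjusted p = 0.0481). Normexp background correction ended further low oxygen calls, among them those of Atf3 (0.61, adjusted p = 0.0590) and Asns (-0.64, 0.0539) in wild-type cells and of Nupr1 (-0.46, 0.0512) in knockout cells, and the starvation calls of Slc7a5 (-0.69, 0.0571) and Mthfd2 (-0.62, 0.0556) in wild-type cells. The starvation change of Asns in wild-type cells was called with quantile normalization (-0.67, adjusted p = 0.0278) and in the authors' deposited value table (-0.66, 0.0318).

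Markers of some other marrow cells moved with the conditions. Neutrophil markers, 8 of 9 matched with 1 (Retnlg) never above background, summed to 3.70 to 4.36 in wild-type controls, 2.74 to 3.41 at low oxygen and 3.00 to 3.37 after starvation, and to 3.43 to 4.11, 2.54 to 3.41 and 2.64 to 3.32 in knockout cells. Markers of erythroid cells and megakaryocytes, 5 of 6 matched with 2 never above background, Klf1 above it in 2 samples and only Pf4 and Hba-a1 in more, summed to 2.63 to 2.79, 4.13 to 5.19 and 3.74 to 4.10 in wild-type and to 2.78 to 2.99, 4.13 to 5.18 and 3.49 to 3.86 in knockout cells. Mast cell, basophil and eosinophil markers, all 7 matched with Mcpt8, Fcer1a and Epx never above background, Cpa3 in 1 sample, Prg2 in 2 and only Siglecf and Kit in more, summed to -0.82 to -0.79 in wild-type controls and 0.29 to 1.48 at low oxygen, and to -0.87 to -0.62 and 0.41 to 1.40 in knockout cells. Stromal and endothelial markers, all 6 matched, summed to 0.22 to 0.90 in wild-type and 0.10 to 0.65 in knockout controls and to -0.81 to -0.47 and -0.86 to -0.61 after starvation. Macrophage markers summed to between 7.81 and 8.05 in controls, 8.22 and 8.46 at low oxygen and 7.85 and 8.00 after starvation. Osteoclast sums were 5.55 to 5.85 in wild-type controls, 5.19 to 5.54 at low oxygen and 5.16 to 5.61 after starvation. In knockout cells they were 5.89 to 6.26, 5.52 to 6.11 and 5.48 to 5.86, so the controls of the genotypes did not overlap. The part of these marker shifts in the results above was not tested.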

How the data were processed

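Agilent 1-colour arrays (20 arrays on 5 slides, 18 samples, 200 ng RNA per array) were scanned with Agilent Feature Extraction 10.7.3.1, per the file headers, and the deposited intensity values are its processed, background-subtracted signals. The authors' deposited log2 value table was used only as an alternative: its columns share nearly 1 distribution, and the submitters' processing notes name limma. Here log2 processed signals had outlier-marked spots dropped, spots of a probe averaged, and the array's 75th percentile subtracted. Repeat arrays of 2 samples were averaged. Probes were tested that rose well above background in 3 or more samples and had 2 or more values in every group, and the brightest probe stood for its gene. Of 39429 probes 26055 had a symbol.

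The 6 groups were fitted together with limma 3.58.1 in R 4.3.3 (lmFit and eBayes, 12 residual degrees of freedom), with Benjamini-Hochberg adjustment over 20812 genes and a threshold of 0.05. The script was tested on simulated data. The number of arrays limits the precision. Any of the 37 may be named, with every sample's value for those called with a log2 change of at least 1 and for Atf4, Ddit3 and Asns. Of each further list, the 3 called genes with the smallest adjusted p in a comparison may be named. The members and lists were chosen with earlier results of these data known. Deviations of same-numbered samples of a genotype correlated at a median of 0.0786 (from -0.0874 to 0.287, 8 of 18 over 0.1), against -0.0531 (5 of 36 over 0.1) for different numbers. Since not every pair was over 0.1, replicate numbers were not taken as pairs. In all, 12 alternatives (4 of them chosen after seeing the data) and the removal of each of 18 samples were tried.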

Additional observations from a re-analysis of the deposited data

How the results depend on the processing

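Genes called higher at low oxygen in wild-type cells numbered 8, but 3 with normexp background correction of the median signal, 5 with no filter on dim probes and 4 with the slide as a block, and 4 to 8 with 1 sample left out. In knockout cells the 9 went to 5 with normexp and to 6 to 9 with 1 sample left out. Genes called lower after starvation in wild-type cells numbered 12, but 6 with normexp and 6 to 10 with 1 sample left out, and the 9 of knockout cells ranged from 6 to 12 over the other alternatives and from 6 to 10 with 1 sample left out. Against none called higher after starvation, 1 was called in wild-type cells with the slide as a block and 1 with the replicate block (Slc1a5 both times), and 1 in knockout cells with the filter on all 18 samples (Slc38a2). Counts lower at low oxygen stayed at 13 to 15 in wild-type and 12 to 14 in knockout cells. Xpot after starvation in wild-type cells reversed to 0.55 (adjusted p = 0.60) with the mean over probes, where 1 probe lacked a value in a control, and gave -0.48 (adjusted p = 0.0152) with probes centred first. The cause of the other shifts was not tested. Normexp moved the median of all genes after starvation in wild-type cells from 0.03 to 0.19, and dropping the filter moved it at low oxygen from 0.04 to 0.21. The replicate block kept 205 of 210 gene results on their side of the threshold. It ended the starvation calls of Chac1 in knockout cells (adjusted p = 0.0539) and Mars1 in wild-type cells (0.0589). No genotype difference was called under any alternative run. Dim probes such as that of Stc2 after starvation carry little information.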
